A study of Mus musculus with 24 samples.

Results

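Release of neurotransmitter depends on proteins that sit on synaptic vesicles, dock and fuse them at the plasma membrane, hold the release site together and take the membrane back afterwards. The mRNA levels of 44 genes for such proteins were followed in nuclei of the mouse cortex with and without the histone demethylase gene Kdm6b. The members were chosen by gene symbol, and all 44 were found among the 25135 genes listed for both ages. By role they were 7 vesicle membrane proteins, 3 synapsins, 8 synaptotagmins, 7 SNARE proteins and their partners, 2 complexins, 3 Rab3 GTPases, 10 active zone and priming proteins and 4 proteins of vesicle retrieval. Of these, 43 had a mean of at least 1 FPKM (fragments per kilobase of transcript, scaled to the number of mapped fragments) over the 12 libraries of each age and were tested. The remaining member, Sv2c, a vesicle glycoprotein, had medians between 0.529 and 1.10 FPKM in the 4 groups and was not tested.

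Cortices of WT mice (Kdm6b wt/wt) and Kdm6b-cKO mice (Emx1-Cre; Kdm6b f/f; labelled Kdm6b-KO) were compared at the postnatal days P1 and P30, with 6 libraries in each of the 4 groups. All carried the reporter SUN1-GFP, which tags nuclei of Emx1-lineage cells, on a C57BL/6 background, and GFP-positive nuclei were sorted by flow cytometry. The sorted nuclei held neurons and glia, since Emx1 marks cortical stem cells that form both. All values are therefore nuclear RNA of mixed cells, in which fewer cells of a type and less RNA per cell cannot be told apart. The labels do not say whether the libraries of a group came from different animals, so that p-values measure only the spread between these libraries, which may be technical.

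A synaptic vesicle fuses when the vesicle SNARE synaptobrevin (Vamp2 or Vamp1) zips together with syntaxin-1 (Stx1a) and SNAP-25 (Snap25) on the plasma membrane. Several synaptotagmins sense calcium, complexins clamp and promote the step, and NSF with its SNAP adaptors pulls spent complexes apart. Piccolo, Bassoon, the RIM, ELKS and liprin-alpha proteins and Munc13 build the active zone, the site at which vesicles are primed. Transcripts of these genes are abundant in cortical neurons and change while synapses form after birth.

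Some features of the libraries touch the results that follow. Approximate depth, read from the spacing of low FPKM values, was 809000 to 3890000 fragments in WT and 189000 to 2840000 in Kdm6b-cKO at P1, and 5100000 to 8280000 and 1930000 to 6840000 at P30. Kdm6b itself had medians of 37.3 FPKM in WT and 33.1 in the libraries labelled Kdm6b-cKO at P1 (limma, adjusted p = 0.534), and of 20.6 and 24.4 at P30 (adjusted p = 0.828), so that gene-level FPKM did not separate the labels. By another measure, qRT-PCR on sorted GFP-positive nuclei, the paper reports an efficient loss of Kdm6b mRNA in Kdm6b-cKO. More than 100 olfactory receptor genes were above 0 in each of 4 WT libraries and in 1 Kdm6b-cKO library at P1. The 45S pre-ribosomal RNA exceeded 1000 FPKM in 5 WT and 3 Kdm6b-cKO libraries at P30, and these 3 were the shallowest of that age. The 8 pan-neuronal markers summed to 2329 to 3016 FPKM in WT and 2334 to 3015 in Kdm6b-cKO at P30. The 13 GABAergic markers, of cells outside the Emx1 lineage, summed to 46.4 to 437 and 175 to 361 FPKM at that age. All 9 oligodendrocyte markers were lower in Kdm6b-cKO at P30, 3 of them at an adjusted p under 0.05, with median sums of 307 FPKM in WT and 162 in Kdm6b-cKO and no overlap, and the part of cell mixture in the differences below was not tested.

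At P1, in WT, the most abundant members per transcript length were Rab3a, a GTPase of the vesicle surface, with a median of 209 FPKM (range 187 to 306), and Snap25 with 177 (148 to 207). The ranges overlapped, so their order is not fixed. The next ones were Syt4, Vamp2, Syngr3, Syt5 and Stx1a, with medians from 118 to 141 FPKM and overlapping ranges. At the other end stood the active zone scaffold Bsn with 4.08 FPKM and the synaptotagmins Syt12 and Syt2 with 2.03 and 1.39.

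In Kdm6b-cKO at P1, no member passed the adjusted test, and those with the smallest p-values belonged to the fusion machinery and the vesicle membrane. With limma, 0 of 43 members had an adjusted p under 0.05, as did 0 of all 16250 genes tested (0%). At an unadjusted p under 0.05, 10 members were lower in Kdm6b-cKO, where the share over all genes was 7.77%, and 2 were higher, where it was 6.7%. The members' median log2 fold change of -0.31 stood beside -0.25 for all genes, and 32 of 43 members were negative against 63.2% of all genes. The median of all genes, but not that of the members, depended on low values: with a mean of at least 5 FPKM they were -0.05 for all genes and -0.32 for members, and with a pseudocount of 1 they were -0.10 and -0.30, in that order. No member had groups without overlap, in either direction, where the shares were 0.683% (lower) and 0.603% (higher). Without the 2 Kdm6b-cKO libraries of under 500000 fragments, 13 members had an unadjusted p under 0.05, none an adjusted one, and the median was -0.37. No share over all genes is given for that fit.

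Vamp2, the main vesicle SNARE of the forebrain, ranged from 86.6 through a median of 134 to 232 FPKM in WT and from 13.3 through 54.0 to 105 FPKM in Kdm6b-cKO. Only the highest Kdm6b-cKO library reached into the WT range. The log2 fold change was -1.57 ± 0.41 (SE; limma, adjusted p = 0.180; exact permutation p = 0.00433). Stx1a, the plasma membrane syntaxin, ranged from 66.3 through 118 to 178 FPKM in WT and from 11.7 through 55.0 to 72.1 in Kdm6b-cKO. Here 3 Kdm6b-cKO libraries lay inside the lower end of WT. Its log2 fold change was -1.53 ± 0.44 (limma, adjusted p = 0.190; exact permutation p = 0.00866).

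Synaptophysin (Syp), a major integral protein of the vesicle membrane, had 67.2, 88.8 and 132 FPKM as lowest, median and highest WT values and 20.5, 47.3 and 82.7 in Kdm6b-cKO (log2 fold change -1.06 ± 0.29; limma, adjusted p = 0.184; exact permutation p = 0.00649). A single Kdm6b-cKO library overlapped WT. Synaptogyrin-3 (Syngr3), a vesicle protein of the same tetraspan group, had 107, 124 and 179 FPKM in WT and 31.6, 55.0 and 128 in Kdm6b-cKO (log2 fold change -1.05 ± 0.32; limma, adjusted p = 0.195; exact permutation p = 0.0173). In this case 2 Kdm6b-cKO libraries overlapped WT. Napb, the brain SNAP adaptor that brings NSF to spent SNARE complexes, had 17.6, 23.1 and 27.8 FPKM in WT and 2.50, 11.0 and 19.8 in Kdm6b-cKO (log2 fold change -1.28 ± 0.42; limma, adjusted p = 0.208; exact permutation p = 0.00649), with 1 Kdm6b-cKO library inside the WT range.

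The other members lower at an unadjusted p under 0.05 were Syngr1, Sv2b, Syn1, Syn3 and Cplx1. Sv2b, a vesicle glycoprotein related to Sv2a, had 7.12, 10.8 and 12.6 FPKM in WT and 0, 3.34 and 7.81 in Kdm6b-cKO, the 0 standing in a library of 342000 fragments (exact permutation p = 0.00433). Syngr1, a second synaptogyrin, had 21.2, 26.0 and 32.3 FPKM in WT and 11.7, 18.5 and 22.4 in Kdm6b-cKO (exact permutation p = 0.00433). In both genes 1 Kdm6b-cKO library reached into the WT range. Complexin-1 (Cplx1), which binds the assembled SNARE complex, had 44.7, 59.1 and 80.3 FPKM in WT and 10.5, 34.7 and 66.0 in Kdm6b-cKO, with 2 libraries inside the WT range (exact permutation p = 0.0541). Snap25 did not follow its partners, with 148, 177 and 207 FPKM in WT and 75.1, 177 and 367 in Kdm6b-cKO (log2 fold change -0.08 ± 0.33; limma, adjusted p = 0.924).

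Vamp2, Syp, Stx1a, Syngr3 and Napb were also compared on both sides of the olfactory receptor split at P1. Among the 2 WT and 5 Kdm6b-cKO libraries without that signal, the log2 difference was -1.61 for Vamp2, -1.08 for Syp and -1.80 for Stx1a. The exact permutation p was 0.0476 for Vamp2 and for Syp, the smallest this split allows, and 0.0952 for Stx1a. Syngr3 differed by -1.02 (exact permutation p = 0.143) and Napb by -1.29 (exact permutation p = 0.190). With the signal stood 4 WT libraries and 1 Kdm6b-cKO library, which was also the shallowest, with differences of -3.14 for Vamp2, -2.02 for Syp, -2.29 for Stx1a, -1.49 for Syngr3 and -0.79 for Napb. At that library's depth the Vamp2 value rests on about 5 fragments, against 176 to 1154 in WT.

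By role, the vesicle membrane and fusion genes sat lowest at P1. All 6 tested vesicle membrane proteins were negative (median log2 fold change -0.83), as were all 3 synapsins (-0.61), which tether vesicles in the reserve pool, and all 7 SNARE genes (-1.28). Over all genes 63.2% were negative, and 5 of the 7 SNARE genes lay below the median of all genes. These counts of negative members were the same with the other 2 scalings tried, whereas with limma's library weights Synpr (0.11) and Snap25 (0.13) turned positive. Markers of other cell types were lower beside them at P1, none at an adjusted p under 0.05, namely 7 of 8 of astrocytes (median log2 fold change -0.86), 7 of 8 tested of the oligodendrocyte lineage (-1.08) and 6 of 7 of microglia (-1.12). Of the 8 pan-neuronal markers 5 were lower (-0.19), of the 11 glutamatergic markers 7 (-0.19), and of the 12 GABAergic markers tested 8 (-0.38). The part of cell mixture in the members' values was not tested. The Rab3 GTPases had a median of 0.01 and the 10 active zone genes one of 0.02, with 5 negative, and both medians turned negative after quantile normalization (-0.24 and -0.07). Synaptotagmins lay between, with 6 of 8 negative and a median of -0.30. The 2 members higher at an unadjusted p under 0.05 were Dnm1, the neuronal dynamin that pinches off endocytic vesicles (log2 fold change 1.18 ± 0.49; limma, adjusted p = 0.293), and the ELKS gene Erc1 (0.76 ± 0.32; limma, adjusted p = 0.295). In Dnm1, WT spanned 6.05 to 12.3 FPKM with a median of 9.04, and Kdm6b-cKO 8.87 to 78.3 with a median of 14.3. The 2 highest Kdm6b-cKO libraries for Dnm1 (78.3 and 46.7 FPKM) were also the 2 highest for Erc1 (107 and 106 FPKM), and the 2 whose 45S RNA exceeded 1000 FPKM at this age (3423 and 3239). The part of 45S in these differences was not tested.

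**Figure D1:**
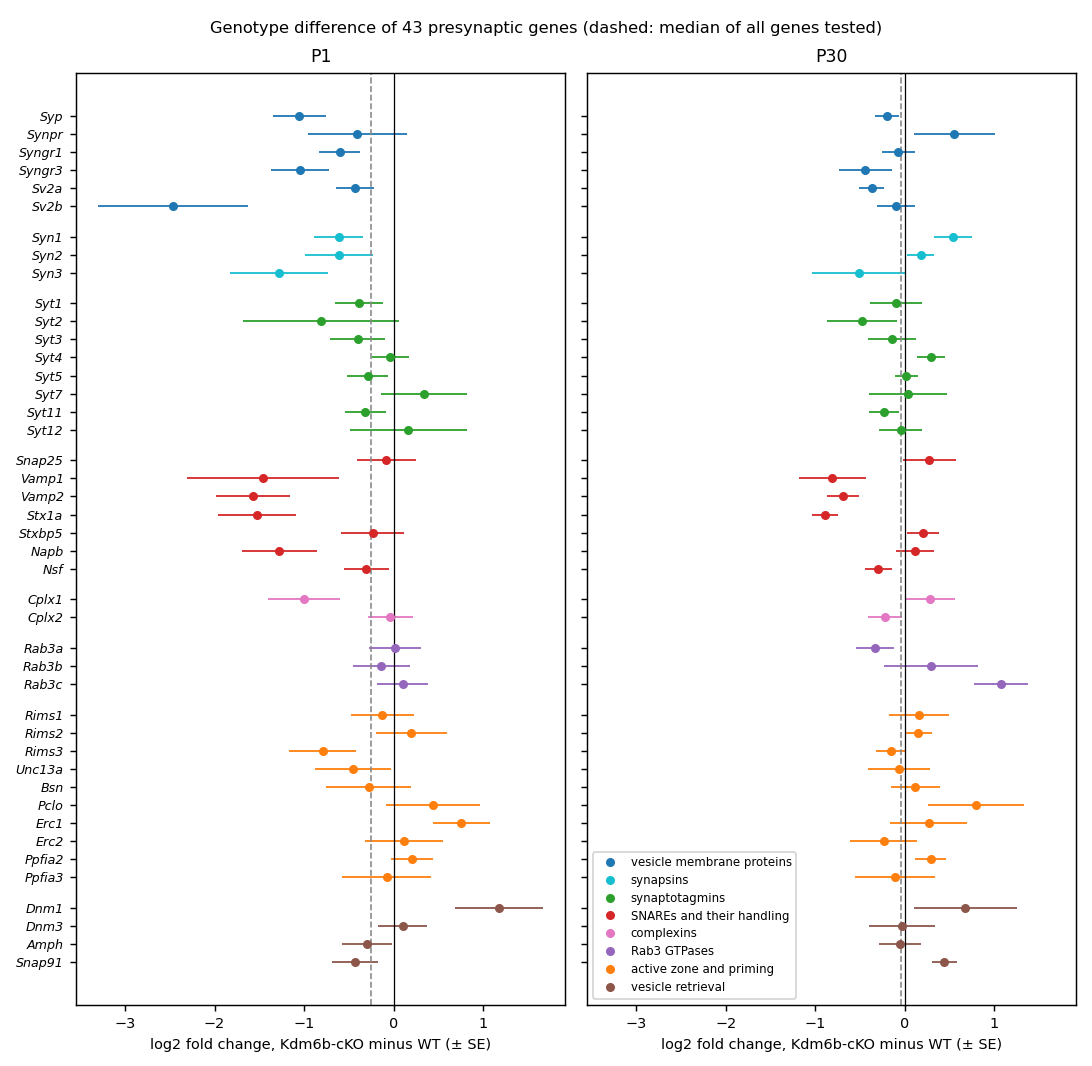
Log2 fold change (Kdm6b-cKO minus WT, on log2(FPKM + 0.1); bars, SE; 6 libraries per group) of the 43 tested members at P1 (left) and P30 (right), coloured by role, with the median of all genes tested as a dashed line. At P1 all 7 SNARE genes and all 6 vesicle membrane genes lie left of 0, and at P30 Stx1a is the member farthest to the left at -0.89.

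At P30, Stx1a fell in Kdm6b-cKO, and it was the 1 member to pass the adjusted test. Lowest, median and highest values were 170.2, 206 and 225 FPKM in WT and 97.8, 105 and 126 in Kdm6b-cKO, so that every Kdm6b-cKO library lay below every WT library. The log2 fold change was -0.89 ± 0.14 (SE), a 1.85-fold lower level (limma, adjusted p = 0.0204), and the exact permutation p of 0.00216 is the smallest that 6 against 6 allows. Of all 13289 genes tested, 0.286% were lower at an adjusted p under 0.05 and 0.226% were also lower by more than 2-fold, a size that Stx1a did not reach. In the higher direction the shares were 0.0828% and 0.0527%, and no member passed. Stx1a lies on the forward strand of chr5:135499352-135526970 (mm9), with no exon of another annotated gene over its own exons, and its values rest on about 1850 to 3578 fragments in WT and 478 to 1420 in Kdm6b-cKO.

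The Stx1a difference was of like size within each 45S group. Among the libraries with high 45S, 5 WT spanned 170.2 to 225 FPKM and 3 Kdm6b-cKO 100.3 to 126 (log2 difference -0.81; exact permutation p = 0.0179, the smallest possible). Among those with low 45S, the WT library had 205 FPKM and the 3 Kdm6b-cKO libraries 97.8 to 106 (-0.99). Omitting any 1 of WT libraries 2 to 5 or of Kdm6b-cKO libraries 0 and 1 gave a log2 fold change of -0.86 to -0.92 and an adjusted p of 0.0502 to 0.0688 with limma, above the threshold of 0.05. Omitting any other library kept it below.

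Of its fusion partners, Vamp2 had 61.7, 69.7 and 101.2 FPKM in WT and 34.4, 45.5 and 58.5 in Kdm6b-cKO, again without overlap, but did not pass the adjusted test (log2 fold change -0.69 ± 0.18; limma, adjusted p = 0.134; exact permutation p = 0.00216). Its log2 difference was -0.85 within the high-45S libraries and -0.92 within the low-45S libraries. Non-overlapping lower values occurred in 2 members, Stx1a and Vamp2, and in 1.05% of all genes. Snap25, the third SNARE, overlapped in part, with 3 Kdm6b-cKO libraries above the highest of WT. It had 143, 210 and 313 FPKM in WT and 150.4, 261 and 425 in Kdm6b-cKO (log2 fold change 0.28 ± 0.30; limma, adjusted p = 0.750). On the log2 scale the Stx1a to Snap25 ratio was -0.61 to 0.25 in WT (median -0.01) and -2.12 to -0.42 in Kdm6b-cKO (median -1.17), with 2 Kdm6b-cKO libraries inside the WT range. The mean ratio differed by -1.17 (exact permutation p = 0.00649), among 20 ratios compared at each age. For Stx1a and Vamp2 it differed by -0.20 (exact permutation p = 0.364). Within Kdm6b-cKO, Snap25 was at 329 to 425 FPKM in the 3 low-45S libraries and at 150.4 to 193 in the 3 high-45S ones. Only 1 WT library had low 45S, and the part of 45S in the Stx1a to Snap25 ratio was not tested.

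Snap91, which encodes the clathrin adaptor AP180 of vesicle retrieval, was the 1 member with higher values without overlap, a pattern found in 0.888% of all genes. It had 32.4, 36.3 and 39.6 FPKM in WT and 40.4, 47.8 and 58.9 in Kdm6b-cKO (log2 fold change 0.44 ± 0.14; limma, adjusted p = 0.221; exact permutation p = 0.00216). The gap between the groups was narrow, from 39.6 to 40.4 FPKM. Within the high-45S libraries the log2 difference was 0.66 (exact permutation p = 0.0179, the smallest possible), and within the low-45S libraries 0.18. Within Kdm6b-cKO, the high-45S libraries had 50.7 to 58.9 FPKM and the low-45S ones 40.4 to 44.9.

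Rab3c, a minor Rab3 GTPase, had 1.05, 2.65 and 3.87 FPKM in WT and 3.48, 5.18 and 6.70 in Kdm6b-cKO (log2 fold change 1.08 ± 0.30; limma, adjusted p = 0.157; exact permutation p = 0.00433). By median it held place 40 of the 44 members in WT and place 39 in Kdm6b-cKO. The lowest Kdm6b-cKO library lay just below the highest WT library. Within the high-45S libraries the log2 difference was 1.09 (exact permutation p = 0.0536), and within the low-45S libraries 0.53. That WT library, number 0, also had the highest GABAergic marker sum, 437 FPKM, against 46.4 to 313 in the other 5, and all 9 GABAergic markers tested were higher in Kdm6b-cKO, none at an adjusted p under 0.05. The part of these cells in the Rab3c difference was not tested. Rab3a, the major family member, had 43.8, 48.4 and 72.7 FPKM in WT and 26.5, 42.6 and 54.4 in Kdm6b-cKO. The log2 ratio of Rab3a to Rab3c was 3.68 to 5.25 in WT and 2.32 to 3.43 in Kdm6b-cKO, without overlap (difference of means -1.41; exact permutation p = 0.00216).

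Sv2a, the vesicle glycoprotein bound by the drug levetiracetam, had 60.7, 70.7 and 81.4 FPKM in WT and 40.7, 57.0 and 60.9 in Kdm6b-cKO, with only the ends touching (log2 fold change -0.37 ± 0.14; limma, adjusted p = 0.306; exact permutation p = 0.00433). The difference was -0.52 within the high-45S libraries and -0.09 within the low-45S libraries. Over all members at P30, 4 were lower at an unadjusted p under 0.05 (Stx1a, Vamp2, Sv2a and Vamp1), where the share over all genes was 7.37%. Another 3 were higher (Rab3c, Snap91 and Syn1), where it was 5.34%. The median log2 fold change was -0.04, against -0.05 over all genes, and 23 of 43 members were negative, against 54.8%.

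**Figure D2:**
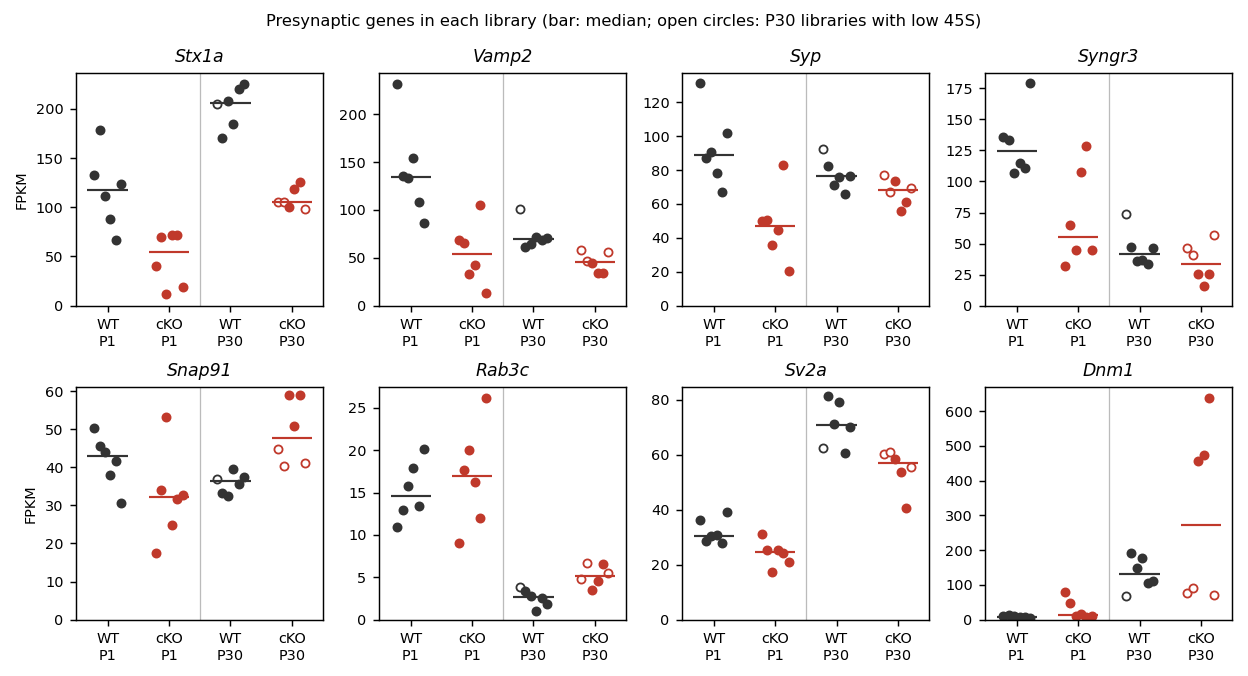
FPKM of 8 members in each library (points) with the median of each group (bar); black, WT; red, Kdm6b-cKO; open circles, P30 libraries with 45S RNA under 1000 FPKM. The axes start at 0, and at P30 the Stx1a values split at 126 and 170.2 FPKM, while the Dnm1 values of Kdm6b-cKO fall into 3 open points between 70.8 and 89.9 FPKM and 3 filled points from 457 to 637.

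The genotype difference was also compared between the ages. No member passed the adjusted test of that difference (limma over 24 libraries; 0 of 43, and 1 of 12644 genes tested, 0.00791%). At an unadjusted p under 0.05 the difference was positive, that is less negative or more positive at P30, in 7 members, against 6.88% of all genes, and negative in 0, against 6.31%. These members were Syn1, Snap91, Napb, Syp, Sv2b, Cplx1 and Rab3c. Syn1, the synapsin encoded on the X chromosome, had a log2 fold change of -0.61 at P1 and 0.54 at P30 (difference 1.16 ± 0.35; limma, adjusted p = 0.178). Stx1a was negative at both ages, with a difference of 0.64 ± 0.49 (limma, adjusted p = 0.590).

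A further list of 64 presynaptic genes, chosen as other parts of the same pathway, was read in the same way. At P1 an unadjusted p under 0.05 was found for 11 lower and 0 higher genes (7.77% and 6.7% of all genes), and the median log2 fold change was -0.42 (all genes, -0.25). The smallest p-values belonged to Atp6v0a1, a subunit of the proton pump that drives vesicle filling (-1.23 ± 0.36; limma, adjusted p = 0.190), to the calcium sensor Doc2a (-1.37 ± 0.41; limma, adjusted p = 0.192) and to Syt13 (-2.59 ± 0.81; limma, adjusted p = 0.198). At P30, 61 were tested, 4 were lower and 5 higher (7.37% and 5.34% of all genes), and the median was -0.07 (all genes, -0.05). Here the smallest p-values belonged to Synj1, the phosphatase that strips clathrin coats, whose values did not overlap between WT (20.8 to 26.1 FPKM) and Kdm6b-cKO (29.5 to 38.5 FPKM; log2 fold change 0.50 ± 0.12; limma, adjusted p = 0.111), to Syt17 (0.77 ± 0.25; limma, adjusted p = 0.225) and to Cadps, a priming factor of dense-core vesicles (0.36 ± 0.13; limma, adjusted p = 0.252). None of the 64 passed the adjusted test at either age.

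Many members split the Kdm6b-cKO libraries of P30 into 2 sets of 3. High 45S stood in libraries 2, 3 and 4 (3034 to 25878 FPKM) and low 45S in libraries 0, 1 and 5 (175 to 209 FPKM). The high-45S libraries were also shallower, with 1930000 to 2640000 fragments against 4000000 to 6840000, so within Kdm6b-cKO depth and 45S cannot be told apart. Between the sets, 16 members were higher in the high-45S libraries without overlap and 13 lower, 67.4% of the 43, against 46.2% of all genes tested.

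Roles differed in direction. In the high-45S libraries, 9 of 10 active zone genes were higher and none lower. By contrast, 5 of 7 SNARE genes and 3 of the 6 tested vesicle membrane genes were lower and none higher. Over all 13289 genes tested, 3034 were higher and 3106 lower without overlap. Dnm1 was at 70.8 to 89.9 FPKM in the low-45S and at 457 to 637 in the high-45S libraries, a 6.15-fold difference of medians. The piccolo gene Pclo was at 30.4 to 36.8 and 106 to 253 FPKM, and the release sensor Syt7 at 70.2 to 91.6 and 259 to 299.6 FPKM. In the other direction, Snap25 was at 329 to 425 FPKM in the low-45S libraries and at 150.4 to 193 in the high-45S libraries, and Vamp1 at 19.9 to 23.0 and 4.31 to 12.5 FPKM. On within-library ranks, which do not depend on scaling, 12 members were higher and 17 lower (67.4%, against 46.4% of all genes). Of the active zone genes 6 of 10 were higher, and of the SNARE genes 6 of 7 were lower. Over all 13289 genes, 3193 were higher and 2975 lower on ranks.

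The single low-45S WT library, number 0, lay on the same side as the low-45S Kdm6b-cKO libraries for most of these members, although its depth (7810000 fragments) was within the range of the other 5. Of the 16 members higher in high-45S Kdm6b-cKO libraries, 13 were lower in WT library 0 than in any other WT library (81.2%, against 64.9% of all genes that were higher). Of the 13 members in the other direction, 10 were highest in WT library 0 (76.9%, against 52.2%). For Unc13a, the priming factor Munc13-1, WT library 0 had 65.8 FPKM and the others 112 to 172. For Snap25 it had 313 FPKM and the others 143 to 219.5. Stx1a was not among them, with 205 FPKM in library 0 inside the range of the others, 170.2 to 225.

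With 45S as a batch term in the model, 11 members passed the adjusted test at P30, 6 lower (5.47% of all genes tested) and 5 higher (5.18%). The lower ones were Stx1a, Vamp2, Vamp1, Syngr3, Rab3a and Nsf, and the higher ones Pclo, Dnm1, Syn1, Syt7 and Snap91. Stx1a and Vamp2 then had nearly equal log2 fold changes of -0.86 ± 0.12 and -0.87 ± 0.12 (limma, adjusted p = 0.00396 and 0.00357). Past 2-fold were Vamp1 at -1.21, a size reached by 2.75% of all genes in the lower direction, and Dnm1 at 1.39 and Pclo at 1.44, reached by 1.39% in the higher direction (limma, adjusted p = 0.0136, 0.0115 and 0.0105). The low-45S side of this fit holds 1 WT library. With limma's library weights instead, 9 members passed, 5 lower (8.52% of all genes) and 4 higher (5.7%), of which Stx1a, and Synpr, Rab3b and Rab3c in the other direction, were past 2-fold (2.48% and 1.51%). Stx1a and Vamp2 were the members that passed in both fits, whereas Dnm1 (-0.39) and Pclo (-0.18) turned negative with the weights.

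**Figure D3:**
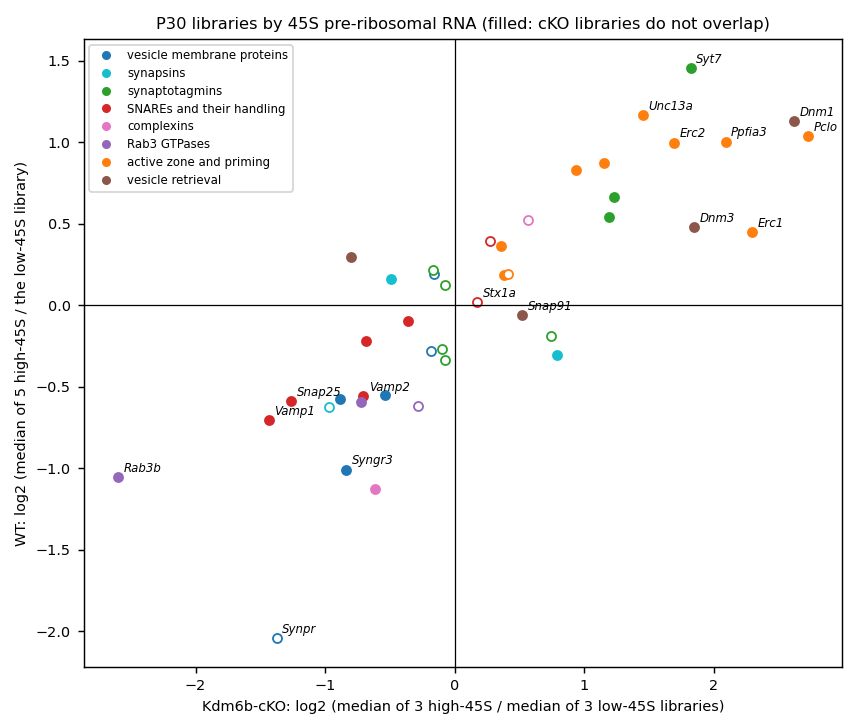
Log2 ratio of high-45S to low-45S libraries at P30 for 43 members, in Kdm6b-cKO (horizontal, medians of 3 and 3 libraries) and in WT (vertical, median of 5 libraries over the 1 low-45S library); filled points, members whose Kdm6b-cKO libraries do not overlap. Active zone genes (orange) lie to the right and SNARE genes (red) mostly to the lower left, with Stx1a near the origin.

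From P1 to P30 the median member moved up the expression ranking, while the Rab3 family moved down. The FPKM tables of the ages were normalized separately, so no test was run between ages, and each gene was given its percentile within a library among the 16895 genes that reached the FPKM minimum at either age. The median member stood at the 77.3rd percentile in WT at P1 (75.5 to 80.7 over libraries) and at the 89.5th at P30 (88.0 to 90.6), and in Kdm6b-cKO at 74.6 (68.7 to 78.4) and 89.5 (88.8 to 91.6). In WT, 22 members ranked higher at P30 in every library than in any P1 library, against 21.6% of all genes ranked. Another 7 ranked lower, against 20.4%, namely the Rab3 genes, Syn3, Syt4, Syt5 and Cplx1. In Kdm6b-cKO, 20 ranked higher, against 12.1%, and 3 lower, against 10.9%. Of the members, 17 ranked higher and 3 lower in both genotypes, and the share of all genes doing so was not computed. Marker sums also differed between the ages in WT. The pan-neuronal markers had median sums of 1204 FPKM at P1 and 2572 at P30, and the GABAergic markers 684 and 100. The part of cell mixture in the rank changes was not tested.

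Of the active zone genes, all 10 ranked higher at P30 in WT and 9 in Kdm6b-cKO. The largest upward shifts in WT belonged to Dnm1, from a median percentile of 55.9 (48.9 to 63.3) to 98.3 (95.8 to 98.9), and to Syt7, from 58.2 (55.8 to 68.6) to 98.7 (95.2 to 99.2). The liprin-alpha gene Ppfia3 went from 56.0 (46.6 to 64.2) to 93.1 (85.4 to 94.2), and Pclo from 57.4 (51.6 to 60.4) to 91.4 (82.3 to 94.6). In none of these 4 did the ages overlap, in either genotype. All 4 were also higher in the high-45S than in the low-45S Kdm6b-cKO libraries of P30. In WT the 45S RNA was at 259 to 476 FPKM at P1 and at 450 to 4027 at P30. The part of 45S in the rank changes was not tested. The size of a rank change depended on which genes were ranked, so that the Dnm1 shift of 42.4 points ranged from 28.5 to 64.8 with other gene sets, and that of Rab3b, -49.0, from -63.1 to -33.0. Snap25, Vamp2, Syp and Snap91, with WT medians of 98.0, 97.1, 95.0 and 88.2 at P1, overlapped between ages in WT. Stx1a went from 96.2 (93.2 to 97.5) to 99.2 (98.7 to 99.4) in WT and from 87.2 (64.5 to 92.0) to 97.8 (96.5 to 98.2) in Kdm6b-cKO, without overlap in either.

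The 3 Rab3 genes ranked lower at P30 in both genotypes. Rab3b went from 81.5 (79.7 to 83.2) to 32.5 (25.1 to 40.6) in WT, and Rab3c from 68.4 (61.4 to 74.6) to 36.6 (26.2 to 42.3). In Kdm6b-cKO at P30 Rab3c had a median of 48.9, and each library stood above every WT library. Rab3a went from 98.7 (98.0 to 99.0) to 92.3 (90.2 to 96.4) in WT. Syn3, a synapsin of immature neurons, went from 73.5 (61.4 to 83.1) to 38.2 (30.1 to 45.3) in WT, and synaptoporin (Synpr), a relative of synaptophysin, from 69.6 (61.5 to 75.6) to 35.7 (31.4 to 62.7), with overlap. Fragments of Syn3 and of Timp3 on the opposite strand cannot be told apart over the 1733 exonic bases they share, since the strand used in counting is not stated. The same holds for 1813 bases of Bsn, 950 of Syt12, 875 of Syp, 575 of Syt4 and 384 of Syt7, and for shorter stretches of 6 other members.

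**Figure D4:**
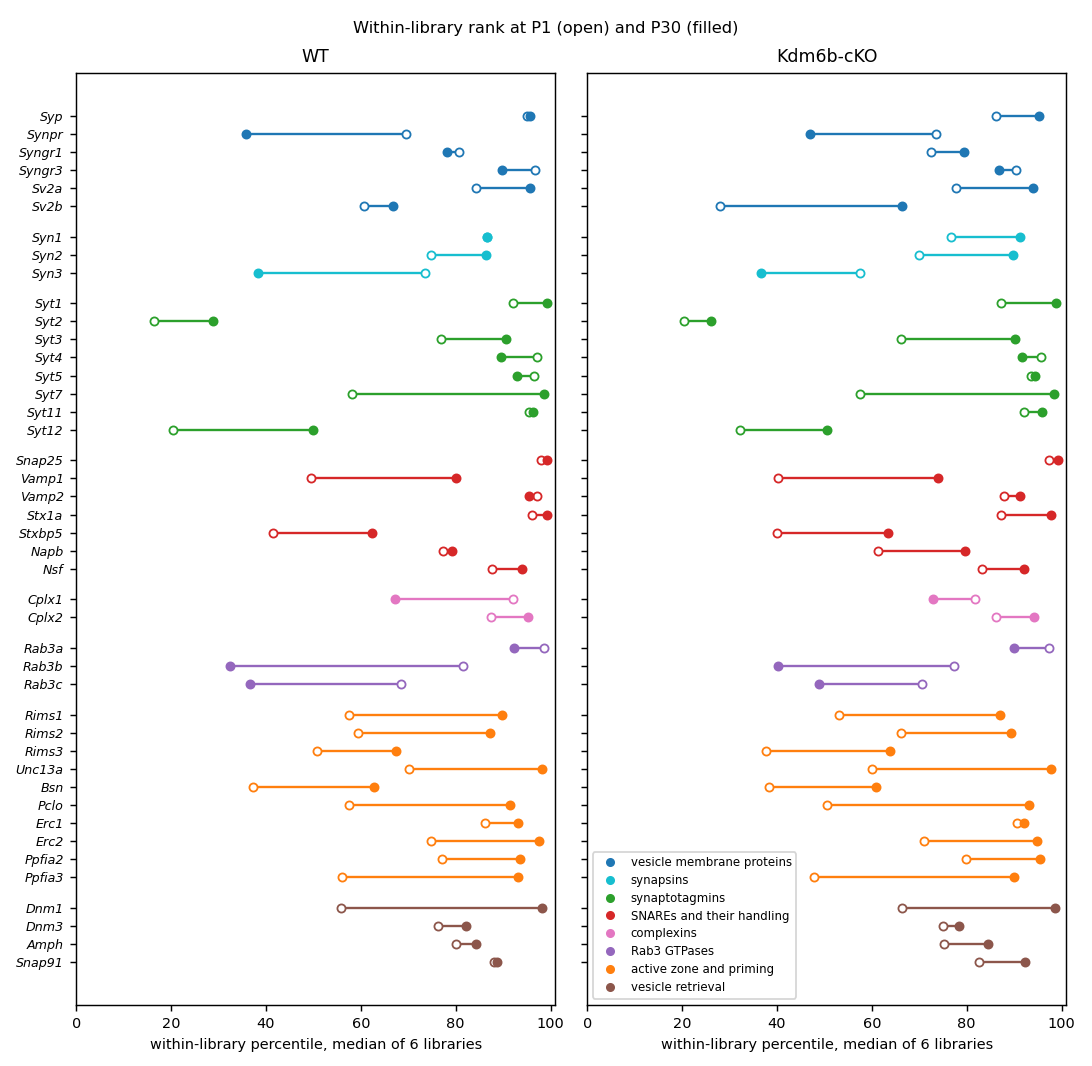
Within-library percentile rank of 43 members (median of 6 libraries) at P1 (open) and P30 (filled) in WT (left) and Kdm6b-cKO (right), coloured by role. The active zone genes move right, as with Pclo from 57.4 to 91.4 in WT, and the Rab3 genes move left, as with Rab3b from 81.5 to 32.5.

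Paralogs differed in their course with age. Of the complexins, Cplx1 went from the 92.1st to the 67.2nd percentile in WT and Cplx2 from the 87.4th to the 95.3rd, neither with overlap, while in Kdm6b-cKO both overlapped between ages. The log2 ratio of Cplx1 to Cplx2 at P1 was 0.09 to 1.11 in WT (median 0.48) and -1.13 to 0.56 in Kdm6b-cKO (median -0.66), with a difference of means of -0.96 (exact permutation p = 0.0303). Of the dynamins, Dnm1 stood below Dnm3 at P1 in every WT library (log2 ratio -1.79 to -0.33) and above it in every WT library at P30 (1.89 to 2.79). The ratio was greater in Kdm6b-cKO at P1 (-1.02 to 1.84; difference 1.08; exact permutation p = 0.0238) and at P30 (2.29 to 3.93; difference 0.71; exact permutation p = 0.0325), with overlap at both ages. Of the ELKS genes, Erc1 exceeded Erc2 at P1 in every WT library (log2 ratio 0.62 to 1.21), and Erc2 exceeded Erc1 in each of them at P30 (-1.17 to -0.48). The Kdm6b-cKO ratio at P30 was -0.61 to 0.01 (difference 0.50; exact permutation p = 0.0195). Within Kdm6b-cKO at P30, medians were higher in the high-45S libraries by 6.15-fold for Dnm1 and 3.61-fold for Dnm3. For Erc1 and Erc2 these folds were 4.91 and 3.24. The part of 45S in the dynamin and ELKS ratios was not tested. All these ratios were among the 20 compared at each age, and their p-values were not adjusted.

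Across the 43 members, which share libraries and are not independent replicates, the Spearman correlation of genomic span with log2 fold change was 0.34 at P1 and 0.40 at P30. For the 20 members spanning under 50 kb the median fold change was -0.53 at P1 and -0.15 at P30 on the log2 scale, and for the 23 longer ones -0.23 and 0.16. Vamp2 (3.90 kb) and Stx1a (27.6 kb) belong to the first set, and Rab3c (227 kb) and Snap91 (116 kb) to the second. Negative were 17 of the 20 shorter and 15 of the 23 longer members at P1, and 15 and 8 at P30. Dnm1 (44.9 kb) went the other way, at 1.18 at P1 and 0.68 at P30, as did Syn3 (444 kb), at -1.28 and -0.51. The correlation was not computed over all genes tested, so it cannot be called particular to the members.

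The upstream sequence is shown for 3 members that mark the main patterns, namely Stx1a, which fell at P30 in Kdm6b-cKO, and Dnm1 and Rab3c, which moved up and down the ranking with age. Each run is the 250 bases before the RefSeq start in GRCm38.p6, read 5′ to 3′ on the gene's strand, with CpG dinucleotides in capitals. The Stx1a window (forward strand, chr5:135023232-135023481) holds 9 CpGs, the Rab3c window (reverse strand, chr13:110280207-110280456) 7 and the Dnm1 window (reverse strand, chr2:32353330-32353579) 20.
Stx1a: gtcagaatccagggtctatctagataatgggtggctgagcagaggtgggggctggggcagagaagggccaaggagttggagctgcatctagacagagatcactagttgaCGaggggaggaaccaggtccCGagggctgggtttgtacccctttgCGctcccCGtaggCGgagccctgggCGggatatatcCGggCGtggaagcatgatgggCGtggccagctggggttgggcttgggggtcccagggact
Rab3c: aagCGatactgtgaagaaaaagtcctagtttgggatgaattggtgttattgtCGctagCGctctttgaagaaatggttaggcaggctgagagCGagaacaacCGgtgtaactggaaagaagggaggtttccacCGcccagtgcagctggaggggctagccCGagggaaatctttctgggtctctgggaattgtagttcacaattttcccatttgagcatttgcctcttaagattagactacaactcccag
Dnm1: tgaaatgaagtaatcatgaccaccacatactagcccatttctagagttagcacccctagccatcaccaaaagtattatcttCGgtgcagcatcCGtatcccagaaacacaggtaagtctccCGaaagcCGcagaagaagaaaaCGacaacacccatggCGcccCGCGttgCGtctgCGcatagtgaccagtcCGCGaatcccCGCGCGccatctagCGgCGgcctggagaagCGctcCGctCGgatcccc

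Across 43 windows of 35 members the median was 13 CpGs (0 to 40), against 6 over all 32851 windows. Those windows belong to 27025 genes, whether or not they were tested here, and some members have more than 1 window. No comparison limited to tested genes was made. The GC box core GGGCGG, searched on both strands, was present in 25 of the 43 windows (58.1%) and in 32.7% of all windows. Stx1a and Rab3c each had 1 match and Dnm1 none. The members without an entry were Vamp2, Snap25, Syngr3, Syn3, Syt4, Syt5, Syt7, Syt12 and Rims2.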

How the data were processed

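Nuclear RNA libraries were made with the VAHTS Universal V10 kit, whose strand setting in counting is not given in the sources used here. The authors aligned reads to mm9 with HISAT2 and deposited gene-level FPKM values from Cuffdiff, 1 table per age (tool versions not given). The remaining tables, which hold the authors' own Cuffdiff comparisons, were not used. Values were analysed as log2(FPKM + 0.1) over genes whose 12-library mean reached 1 FPKM at that age, with limma 3.58.1 (trend) in R 4.3.3 and Benjamini-Hochberg adjustment over all genes tested, for each age separately and, for the difference between ages, over 24 libraries. Exact two-sided permutation tests, ranks and figures were made in Python 3.11.15 (scipy 1.17.1 for tests, pandas 2.3.3 with numpy 2.4.6 for tables, matplotlib 3.10.9 for plots). Since FPKM are not counts, no count test was run. Approximate depth was derived from the FPKM step of 1 fragment at an assumed fragment length of 200 bases, and covers counting only.

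Members and lists were chosen with earlier results of these data known. Named genes were the 5 members with the smallest p at each age, members whose groups do not overlap, the 4 largest rises and the 4 largest falls of median rank in WT, and the 3 other presynaptic genes with the smallest p at each age; other genes were named after their values were seen. Library numbers 0 to 5 recur in each group, and libraries with the same number did not deviate together (r = -0.182 to 0.233 at P1 and -0.299 to 0.328 at P30), so they were not treated as pairs. The splits used as batches were set from the values themselves, and no label names a batch. They were libraries with over 100 olfactory receptor genes above 0 (P1) and with 45S RNA over 1000 FPKM (P30). The paper names NovaSeq or Element AVITI sequencers and does not say which libraries ran on which. Gene positions are from the mm9 annotation and promoter windows from RefSeq for GRCm38.p6. Pseudocounts, filters, scalings, weights, a batch term, a replicate block and omission of each library were tried as alternatives. The procedure was tested on simulated data.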

Additional observations from a re-analysis of the deposited data

Results flagged for a closer look

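Of 176 combinations of member and group, 13 had a library farther from its group than Dixon's criterion for 6 libraries allows on the log2 scale (gap over range, 0.625), a criterion that chance meets in about 5% of groups. At P30, WT library 0 stood apart in 5 members. It was the highest for Vamp2, at 101.2 FPKM with the next library at 72.1, and for Rab3a, at 72.7 with the next at 50.6. It was the lowest for the release site genes Rims1 and Erc2, at 22.5 and 55.5 FPKM with the next at 37.5 and 99.0, and for Cplx2, at 47.5 with the next at 64.8. WT library 1 was the highest for Erc1, at 91.2 FPKM against 52.7, and for Syt2, at 3.67 against 1.59. In Kdm6b-cKO at P30, library 4 was the lowest for Sv2a, at 40.7 FPKM against 53.9, and library 3 the highest for Syt5, at 66.7 against 55.3.

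At P1, Kdm6b-cKO library 2 was the highest for Syt4, at 201.6 FPKM against 141.5, and Kdm6b-cKO library 0, one of the 2 shallow libraries, was listed at 0 for Vamp1 with the next at 2.24. WT library 1 was the highest for Syt7, at 15.5 FPKM against 11.0, and WT library 5 for Syt11, at 143 against 98.8.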

How the results depend on the processing

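The fold changes of Vamp2, Syp, Stx1a, Syngr3 and Napb at P1 and of Stx1a, Vamp2, Rab3c, Snap91 and Sv2a at P30 kept their direction under every alternative run for them. At P1, quantile normalization gave 19 members at an unadjusted p under 0.05 in place of 12, with a median log2 fold change of -0.50 (all genes -0.11), and library weights gave a median of -0.41. Weights by approximate depth, chosen after seeing the data, gave 1 member past the adjusted test and 2-fold, Vamp2 (-1.46; limma, adjusted p = 0.0390). At P30, against 1 member past the adjusted test, 0 past 2-fold as well and 7 at an unadjusted p under 0.05, library weights gave 9, 4 and 20, and the batch term 11, 3 and 19. Leaving out 1 library at a time gave 0 to 1 members past the adjusted test at P30 and a median of -0.077 to 0.055, the latter without Kdm6b-cKO library 0. For the difference between ages, library weights gave 3 members (Napb, Sv2b and Syn2). Among these alternatives, shares over all genes are given above only for the adjusted tests at P30 with library weights and the batch term. The other counts cannot be called particular to the members. With the replicate block, 0 members passed at P30 (Stx1a, limma, adjusted p = 0.166), and 1 of 12 library numbers correlated best with its own. The cause of these shifts was not tested. Values at P1 are limited by the depth of Kdm6b-cKO libraries 0 and 5.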
